A study of Homo sapiens with 6 samples.

Results

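The 4 FGF receptor genes FGFR1, FGFR2, FGFR3 and FGFRL1, the ligand gene FGF2 and the FGF carrier gene FGFBP1 were followed in the breast epithelial line MCF10A with YAP and TAZ depleted. These 6 genes were chosen by name, with earlier results of these data known, and found by Entrez identifier among the 23459 genes of the deposited table. All 6 could be tested, although FGFR3 passed the filter on low counts only through the siYAP/TAZ libraries. MCF10A is a non-tumorigenic human line, grown here with horse serum, insulin, hydrocortisone, cholera toxin and EGF and with no FGF named in the medium. Cells received siRNA at 20 nM, a non-targeting siRNA in the siCtrl group and siRNA against YAP and TAZ in the siYAP/TAZ group. The descriptions of all 6 libraries carry the label WT, and no other change to the line was named. No time of harvest was given in the sources used here. There were 3 libraries per group, prepared with a kit that primes at the poly(A) tail, and counts were compared either as such or as CPM, counts scaled to the same library total after TMM normalisation. Differences are given as log2 changes, the fitted log2 of siYAP/TAZ over siCtrl.

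FGF ligands bind receptor tyrosine kinases together with heparan sulfate, and the activated receptors pass the signal through the adaptor FRS2 to the RAS-MAPK cascade. FGFR1, FGFR2 and FGFR3 are such kinases, whereas FGFRL1 has the ligand-binding ectodomain but lacks the kinase domain. FGF2 is a heparan-bound growth factor, and FGFBP1 is a secreted carrier that releases FGFs from the matrix. YAP and TAZ, the latter encoded by WWTR1, are transcriptional coactivators restrained by the Hippo pathway that bind DNA mainly through TEAD factors.

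The library totals ranged from 3175149 to 4317286 counts. YAP1 (Entrez 10413) was lower in siYAP/TAZ at 57.5% of the siCtrl mean and WWTR1 (Entrez 25937) at 61.8%, with adjusted p-values of 0.0138 and 0.0311 (edgeR's quasi-likelihood test, Benjamini-Hochberg adjustment over 12510 genes, threshold 0.05, as throughout). The labels of 2 libraries contradicted each other on the group, since siCtrl replicate 2 carried a siYAP/TAZ title and siYAP/TAZ replicate 2 a control title. Conflicting labels below are those on the group. The titles of siCtrl replicate 3 and siYAP/TAZ replicate 1 named the same group but another replicate number. The description field, repeated in the table's column names, set the groups, and YAP1 and WWTR1 fell in 3 of 3 libraries under it, whereas under the titles the log2 change was -0.26 for YAP1 and -0.22 for WWTR1 (adjusted p = 0.904 and 0.905). Depletion was partial at the RNA level, and siCtrl replicate 2 lay at 6.98 on the first principal component of log2 CPM, near the siYAP/TAZ libraries at 9.18 to 32.2 and away from siCtrl replicates 1 and 3 at -40.7 and -33.3. On the second component it lay at -35.8, apart from all other libraries of both groups at -6.21 to 22.4. YAP1 missed the threshold when replicate 3 of siCtrl (adjusted p = 0.0988) or replicate 2 (0.0606) or 3 (0.112) of siYAP/TAZ was left out, and WWTR1 passed only when the library left out was siCtrl replicate 2 (0.0111), the other 5 giving 0.0602 to 0.176. All 10 mammary basal epithelial markers were over the floor of 3 counts, with a summed level of 3635 to 4334 CPM in siCtrl and 2643 to 3098 CPM in siYAP/TAZ. The list was mixed, with 7 log2 changes below 0 and 3 above, from -0.73 to 0.58, and 0 past the threshold. The sums of 4 further epithelial markers overlapped, at 316 to 397 CPM in siCtrl and 293 to 357 CPM in siYAP/TAZ. Of 8 fibroblast markers 3 were over the floor, with sums of 159 to 173 and 158 to 184 CPM and COL1A2, COL3A1 and THY1 at 0 in all libraries. Of 5 endothelial markers 4 were over the floor, and their summed level was higher without overlap, at 5.17 to 6.79 CPM in siCtrl and 7.93 to 15.2 CPM in siYAP/TAZ. PECAM1, the 1 of them that could be tested, had 6, 4 and 4 counts against 14, 29 and 18 (a log2 change of 2.10, SE 0.53, adjusted p = 0.0785 in edgeR, 0.0245 with the replicate number as a block and 0.0408 in DESeq2), while CDH5 was at or under 2 counts in every library. KDR was at a mean of 0.481 CPM in siCtrl and 1.85 CPM in siYAP/TAZ. VWF (1.23 and 1.26 CPM) and TEK (2.83 and 2.80 CPM) hardly differed, so the endothelial list did not rise as a whole. Of 5 blood cell markers 2 were over the floor, with sums of 1.44 to 4.94 and 1.36 to 3.97 CPM. The part of the lower basal and the higher endothelial marker sums in the results for the FGF genes was not tested.

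Of the 6 FGF genes, 0 passed the threshold with all libraries, where 1.96% of all genes tested did. At an unadjusted p under 0.05 there were 3, beside 17.7% of all genes: FGF2 and FGFBP1 among the 9.27% that were lower and FGFR3 among the 8.40% that were higher. The groups did not overlap for 2 of the 6, FGF2 and FGFR3, and for 22.1% of all genes. DESeq2 called 1 of the 6, FGF2, beside 4.35%, and without the low-count filter FGF2 and FGFR3 passed, beside 2.90%. Same-numbered libraries of both groups deviated together, weakly for replicate 3 (r of 0.43, 0.35 and 0.13), and the fit was also made with the replicate number as a block. Libraries with different numbers were not compared in this way, so these values do not show that the numbers mark pairs. No label names pairs, so the block was chosen from these same data. With this replicate block 2 passed, beside 10.1% of all genes: FGF2 was called lower, as 5.44% were, and FGFR3 higher, as 4.66% were. Without siCtrl replicate 2 there were 3, beside 12.3%, with FGF2 and FGFBP1 lower (6.22%) and FGFR3 higher (6.08%). The same 3 passed when both libraries with conflicting labels were left out, beside 9.29%. FGFR3 passed the low-count filter only through the siYAP/TAZ libraries, where it was high, so its calls in the filtered fits are description only. In bulk RNA, fewer cells that express a gene and less RNA per cell cannot be told apart.

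**Figure D1:**
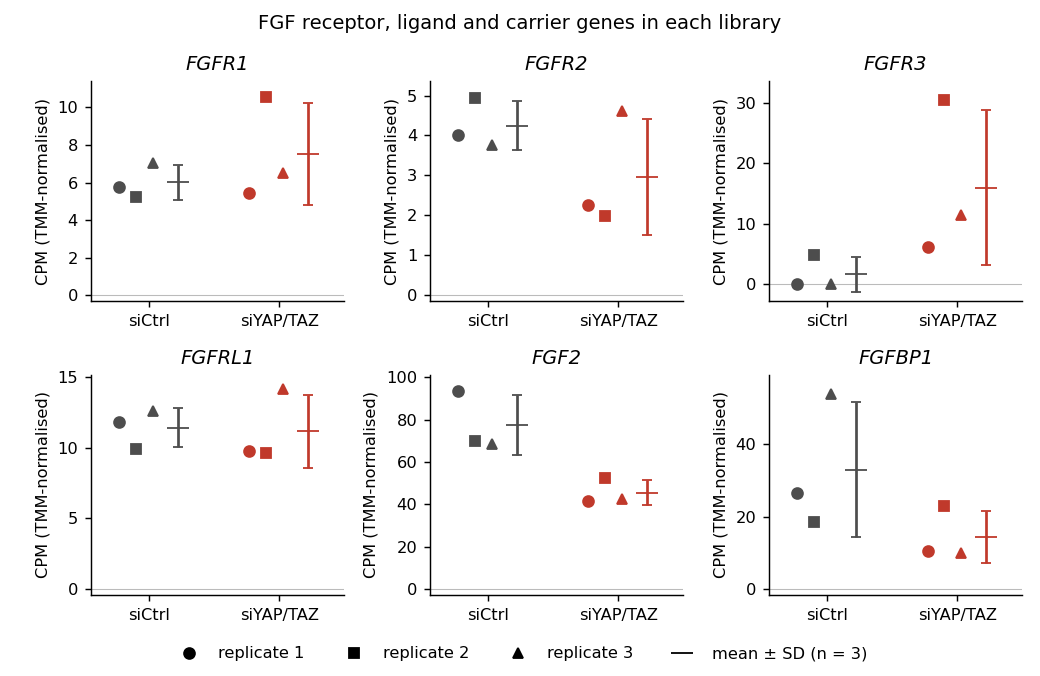
Level of each of the 6 genes as CPM after TMM scaling (y axis, a separate scale per panel) in the siCtrl and siYAP/TAZ libraries, with replicates as symbols and the mean ± SD (n = 3) as bars. FGF2 lies lower in all 3 siYAP/TAZ libraries and FGFR3 higher, while the groups of the other 4 genes overlap.

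The genes held counts at very different densities along the annotated gene. In a poly(A)-primed library such a density does not rank transcript numbers, and in CPM FGF2 at 77.3 lay above FGFBP1 at 33.0 in siCtrl. Scaled to the length of the annotated gene, FGFBP1 had the highest siCtrl mean at 1043 ± 589 CPM per 100 kb, followed by FGF2 at 108 ± 19.7 and FGFRL1 at 67.2 ± 8.15 (SD, n = 3). FGFR3 with 10.6 ± 18.3, FGFR1 with 8.76 ± 1.35 and FGFR2 with 3.53 ± 0.512 CPM per 100 kb came last. The neighbours FGFR3 and FGFR1 did not separate beyond the spread between libraries in siCtrl, while in siYAP/TAZ the FGFR3 level of 102.6 ± 81.98 CPM per 100 kb overlapped FGFRL1 at 65.8 ± 15.2 and FGF2 at 63.5 ± 8.23. As a yardstick, 8 long genes of neurons, a list chosen after the data were seen, held 15 to 73 counts per library at siCtrl means of 0.299 to 0.945 CPM per 100 kb. The siCtrl mean of each of the 6 FGF genes lay above that range, that of FGFR3 only through siCtrl replicate 2, since the other controls were at 0, and how many of their reads came from introns was not tested.

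FGF2 (Entrez 2247), at chr4:123747837-123819391 on the plus strand of GRCh37, FGFR3 (chr4:1795020-1810599, plus) and FGFBP1 (chr4:15937200-15940363, minus) are the 3 genes with an unadjusted p under 0.05, and all lie on chromosome 4, as does FGFRL1. The RefSeq promoter windows of these 3 genes, from 250 bases before to 50 bases after the annotated start in GRCh38.p14, are shown because the genes differed most between the groups and in opposite directions. Capitals mark GC boxes (GGGCGG or CCGCCC), the site of Sp1-type factors.
FGF2, chr4:122826581-122826880, plus strand: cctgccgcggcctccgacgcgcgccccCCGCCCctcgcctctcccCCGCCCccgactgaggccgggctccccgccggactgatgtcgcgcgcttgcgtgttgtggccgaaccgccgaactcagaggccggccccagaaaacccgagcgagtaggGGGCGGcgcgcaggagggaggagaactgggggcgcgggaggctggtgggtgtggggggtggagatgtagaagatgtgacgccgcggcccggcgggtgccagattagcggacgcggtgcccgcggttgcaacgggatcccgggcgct
FGFR3, chr4:1793043-1793342, plus strand: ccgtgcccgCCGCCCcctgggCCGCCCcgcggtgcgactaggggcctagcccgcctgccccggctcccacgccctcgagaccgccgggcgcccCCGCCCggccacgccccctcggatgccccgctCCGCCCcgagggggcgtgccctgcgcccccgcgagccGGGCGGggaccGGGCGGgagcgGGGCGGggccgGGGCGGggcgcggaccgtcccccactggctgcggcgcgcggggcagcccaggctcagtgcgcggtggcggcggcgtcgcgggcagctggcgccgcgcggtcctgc
FGFBP1, chr4:15938691-15938990, minus strand: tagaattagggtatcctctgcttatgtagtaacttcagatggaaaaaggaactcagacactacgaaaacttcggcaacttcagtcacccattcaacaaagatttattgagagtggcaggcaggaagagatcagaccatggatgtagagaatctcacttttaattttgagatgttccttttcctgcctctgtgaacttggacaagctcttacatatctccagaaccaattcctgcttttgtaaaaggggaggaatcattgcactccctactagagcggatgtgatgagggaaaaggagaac
The FGF2 and FGFR3 windows were rich in G and C, at 74.7% and 86.3% with 3 and 8 GC boxes, and the FGFBP1 window held 42.0% and none. The median of 35116 promoter windows was 58.7%, and 45.0% of them held a GC box on either strand. The TEAD core letters GGAATG or CATTCC, present in 14.0% of all windows, were in none of the 3 windows nor in that of FGFRL1, and were in 2 of the 5 windows of FGFR2. The AP-1 letters TGACTCA or TGAGTCA, present in 4.95%, were in none of these windows. Matches of different motifs did not overlap in these windows.

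FGF2 had 326, 227 and 272 counts in siCtrl replicates 1 to 3 and 183, 158 and 157 in siYAP/TAZ. Every siYAP/TAZ library lay below every siCtrl library, as it did for 11.1% of the genes tested. The level was 77.3 ± 14.1 CPM in siCtrl and 45.5 ± 5.89 CPM in siYAP/TAZ, 58.8% of the control mean. The log2 change was -0.77 (SE 0.17, 95% interval -1.16 to -0.38), at adjusted p = 0.0567 in edgeR, just short of the threshold. It passed with the replicate block (-0.77, SE 0.16, adjusted p = 0.0132) and without siCtrl replicate 2 (-0.83, adjusted p = 0.0139), and within the 3 numbered pairs the siYAP/TAZ level was 0.443, 0.746 and 0.625 of its siCtrl partner. The direction was the same in all 17 alternatives, which include the unplanned subtraction described below, with and without the block. With any other single library left out the adjusted p was 0.105 to 0.249.

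The 3′ end of FGF2, where reads of a poly(A)-primed library are expected to start, is covered by NUDT6 (Entrez 11162) on the opposite strand. NUDT6, a nudix hydrolase gene long described as the FGF2 antisense gene, shares 9540 bp with it in GRCh37. It had 174, 118 and 156 counts in the siCtrl libraries against 113, 106 and 95 in the siYAP/TAZ libraries, again with no overlap between the groups. Its log2 change was -0.54 (SE 0.20) at adjusted p = 0.194, and 0.0954 with the replicate block. Whether counting used strand is not stated, so part of the FGF2 counts could be the same reads as those of NUDT6, and the genes cannot be told apart there.

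Counts of NUDT6 were therefore subtracted from those of FGF2 in each library, a step chosen after the data were seen. If every NUDT6 read had also been counted for FGF2, the remainder is what FGF2 held outside NUDT6. The 3′ ends of both genes lie in the shared stretch. The subtraction may thus also remove reads from the 3′ end of FGF2 itself, and the remainder need not measure FGF2 mRNA. This left 152, 109 and 116 counts in the siCtrl libraries against 70, 52 and 62 in the siYAP/TAZ libraries, with no overlap between the groups. The remainder fell from 35.5 ± 7.43 to 16.6 ± 0.689 CPM, a log2 change of -1.09 (SE 0.20) at adjusted p = 0.0302 in edgeR, and 0.00675 with the replicate block. It was lower in 3 of 3 libraries. NUDT6 counts were 52.0 to 57.4% of the FGF2 counts in siCtrl and 60.5 to 67.1% in siYAP/TAZ. With these shares the remainder had to fall further than FGF2 itself, and the test took a difference of 2 counts as a count. The remainder is thus no separate support for the FGF2 result. It remained past the threshold without siCtrl replicate 2 (adjusted p = 0.00866) but not when replicate 1 (0.0946) or 3 (0.0865) of siCtrl or replicate 1 (0.0811), 2 (0.101) or 3 (0.157) of siYAP/TAZ was left out.

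**Figure D2:**
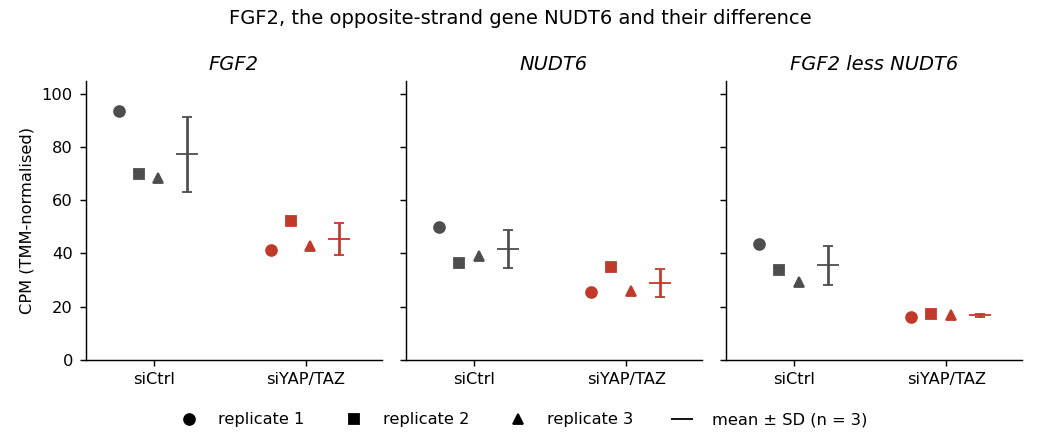
CPM after TMM scaling (y axis, shared) of FGF2, of NUDT6 and of FGF2 less NUDT6 in each library, with replicates as symbols and the mean ± SD (n = 3) as bars. In each panel the 3 siYAP/TAZ libraries lie below the 3 siCtrl libraries, and the remainder in the right panel lies at 15.9 to 17.2 CPM in siYAP/TAZ.

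FGFBP1 (Entrez 9982) had 92, 60 and 215 counts in the siCtrl libraries against 46, 69 and 37 in the siYAP/TAZ libraries. The groups overlapped, since siYAP/TAZ replicate 2 at 22.8 CPM lay above siCtrl replicate 2 at 18.5 CPM. The means were 33.0 ± 18.6 CPM in siCtrl and 14.4 ± 7.26 CPM in siYAP/TAZ. The log2 change was -1.23 (SE 0.43, 95% interval -2.20 to -0.25), at adjusted p = 0.187 in edgeR and 0.0886 with the replicate block. FGFBP1 was lower in 2 of the 3 numbered pairs, at 0.395 and 0.186 of the siCtrl partner, and higher in pair 2 at 1.23. Without siCtrl replicate 2 it passed, with a log2 change of -1.52 (adjusted p = 0.0243). The highest control library was siCtrl replicate 3, and without it the log2 change was -0.66 (adjusted p = 0.568). The difference thus rested on which siCtrl libraries were used.

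FGFR3 (Entrez 2261) had 0, 16 and 0 counts in the siCtrl libraries against 27, 92 and 42 in the siYAP/TAZ libraries. All siYAP/TAZ libraries lay above all siCtrl libraries, as they did for 11.0% of the genes tested, and the control count of 16 came from the replicate whose title reads siYAP/TAZ. A count of 0 allows up to 0.862 CPM in siCtrl replicate 1 and 0.754 CPM in siCtrl replicate 3, taking 3 counts as the limit, and this limit covers counting error only, as reads that carry no molecular identifiers may stem from the same molecule. The means were 1.65 ± 2.85 CPM and 16.0 ± 12.8 CPM, and siYAP/TAZ replicate 2, whose title reads control, held 57.1% of the siYAP/TAZ counts. The log2 change was 3.32 (SE 1.00, 95% interval 1.07 to 5.57) at adjusted p = 0.129 in edgeR and 0.534 in DESeq2. With the replicate block it rose by 3.54 on the log2 scale (SE 0.56, adjusted p = 0.00324), and in pair 2, the only pair with counts on both sides, it was 6.16-fold higher. The controls of pairs 1 and 3 were at 0 counts, so this SE does not measure the spread of the pair ratios.

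Both control libraries at 0 are those whose title and description name the same group. In siCtrl replicate 2 YAP1 stood at 204 CPM and WWTR1 at 109 CPM, against 112 to 118 and 59.8 to 70.5 CPM in siYAP/TAZ. The FGFR3 level of siCtrl replicate 2, 4.94 CPM, lay near that of siYAP/TAZ replicate 1 at 6.12 CPM. With all libraries the siYAP/TAZ mean was 9.71-fold the siCtrl mean. Against the limit of 3 counts in each of siCtrl replicates 1 and 3 it was 19.8-fold higher, or 10.9-fold higher when siYAP/TAZ replicate 2 was left out as well. These 2 ratios drop the only control with FGFR3 counts and allow for counting error only. Without siCtrl replicate 2 FGFR3 passed the threshold (adjusted p = 0.00645). Without siYAP/TAZ replicate 2 the log2 change was 2.48 (adjusted p = 0.350). Under the titles it was -0.38 (adjusted p = 0.961), opposite in sign to the value under the description field. LETM1, which ends 2607 bp downstream of FGFR3 on the opposite strand and encodes a mitochondrial ion transporter, had 121, 104 and 175 counts in the siCtrl libraries against 166, 139 and 117 in the siYAP/TAZ libraries. Its log2 change was 0.051 (SE 0.19, adjusted p = 0.918), which became -0.040 or -0.088 when replicate 2 of siCtrl or of siYAP/TAZ was left out.

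FGFR1 (Entrez 2260; chr8:38257733-38326352, minus strand of GRCh37) had 20, 17 and 28 counts in the siCtrl libraries against 24, 32 and 24 in the siYAP/TAZ libraries. The groups overlapped, and only siYAP/TAZ replicate 2 at 10.6 CPM lay above all controls. The means were 6.01 ± 0.924 and 7.51 ± 2.71 CPM, a log2 change of 0.29 (SE 0.33, adjusted p = 0.699 in edgeR). The 95% interval runs from a 0.730-fold to a 2.05-fold level. Without siYAP/TAZ replicate 2 the log2 change was -0.013 (adjusted p = 0.993).

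The 3′ end of FGFR1 is overlapped over 9313 bp by LETM2 on the opposite strand, a gene of the LETM1 family. LETM2 (Entrez 137994) fell from 43, 27 and 48 counts in siCtrl to 20, 8 and 10 in siYAP/TAZ. Its log2 change was -1.69 (SE 0.33) at adjusted p = 0.0354 in edgeR, lower in 3 of 3 libraries. It missed the threshold when replicate 1 (0.112) or 3 (0.172) of siCtrl or replicate 2 (0.128) or 3 (0.192) of siYAP/TAZ was left out. LETM2 had more counts than FGFR1 in every siCtrl library and fewer in every siYAP/TAZ library, so the reads of LETM2 cannot all have been counted for FGFR1, and how many were shared was not tested.

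FGFR2 (Entrez 2263; chr10:123237846-123357972, minus strand of GRCh37) had 14, 16 and 15 counts in the siCtrl libraries against 10, 6 and 17 in the siYAP/TAZ libraries. Replicates 1 and 2 of siYAP/TAZ lay below all controls and replicate 3 among them. The means were 4.24 ± 0.615 and 2.96 ± 1.45 CPM, a log2 change of -0.50 (SE 0.41, adjusted p = 0.564 in edgeR). The 95% interval, 0.375-fold to 1.33-fold, is wide at these counts, and without siYAP/TAZ replicate 3 the log2 change was -0.97 (adjusted p = 0.490).

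FGFRL1 (Entrez 53834; chr4:1003724-1020686, plus strand of GRCh37) had 41, 32 and 50 counts in the siCtrl libraries against 43, 29 and 52 in the siYAP/TAZ libraries. The groups overlapped, although siYAP/TAZ replicates 1 and 2 at 9.75 and 9.59 CPM lay just below the lowest control at 9.87 CPM and replicate 3 at 14.1 CPM above the highest at 12.6 CPM, with means of 11.4 ± 1.38 and 11.2 ± 2.59 CPM. The log2 change was -0.034 (SE 0.26, adjusted p = 0.961 in edgeR), and its 95% interval of 0.656-fold to 1.46-fold does not exclude a moderate change. Its sign was the opposite when replicate 3 of siCtrl (0.042) or replicate 1 (0.062) or 2 (0.060) of siYAP/TAZ was left out.

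**Figure D3:**
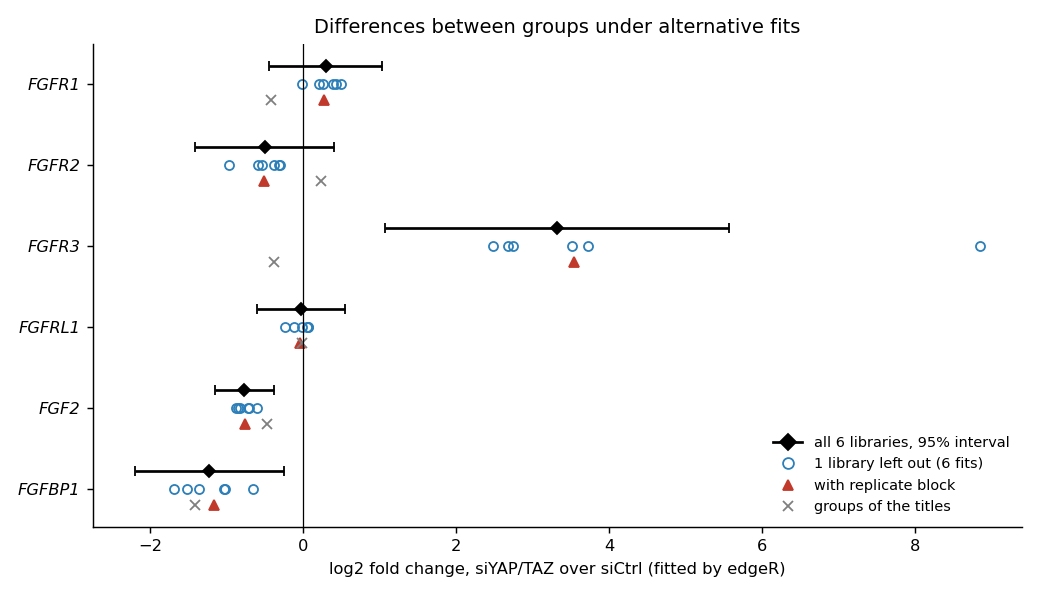
Fitted log2 fold change of each gene, siYAP/TAZ over siCtrl (x axis), with all 6 libraries and its 95% interval (diamonds), with 1 library left out (open circles), with the replicate block (triangles) and under the groups of the titles (crosses). FGF2 and FGFBP1 lie below 0 in every fit shown, FGFR1 and FGFRL1 lie around 0, and the FGFR3 value of 8.86 without siCtrl replicate 2 depends on the prior count because the remaining controls are at 0.

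The mix of the 3 kinase receptors was compared within each library, which needs no scaling between libraries. FGFR3 made up 0, 32.7 and 0% of the summed FGFR1, FGFR2 and FGFR3 counts in the siCtrl libraries against 44.3, 70.8 and 50.6% in siYAP/TAZ. In each siYAP/TAZ library FGFR3 had the largest share. In siCtrl replicates 1 and 3 FGFR1 did, while in siCtrl replicate 2 the 3 genes were nearly equal at 17, 16 and 16 counts. The sums behind these shares were 34, 49 and 43 counts in the siCtrl libraries against 61, 130 and 83 in the siYAP/TAZ libraries, so a share of 0 allows up to 8.82% and 6.98% in siCtrl replicates 1 and 3.

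The mean share of FGFR3 was higher by 44.3 percentage points in siYAP/TAZ, at 10.9 ± 18.9% against 55.2 ± 13.8%. That of FGFR2 dropped by 22.4 points (36.2 ± 4.42% against 13.8 ± 8.24%) and that of FGFR1 by 21.9 points (52.9 ± 16.1% against 31.0 ± 7.57%). The two-sided exact permutation p over 3 against 3 libraries was 0.1 for FGFR3 and FGFR2, the smallest this design can give, and 0.2 for FGFR1, or 0.15, 0.15 and 0.2 after adjustment over the 3 shares. The 3 shares sum to a fixed total, and the lower shares of FGFR1 and FGFR2 stood beside FGFR1 and FGFR2 levels that did not pass a test. How many of these counts came from introns or were shared with LETM2 was not tested, so a share does not give the relative number of receptor transcripts.

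**Figure D4:**
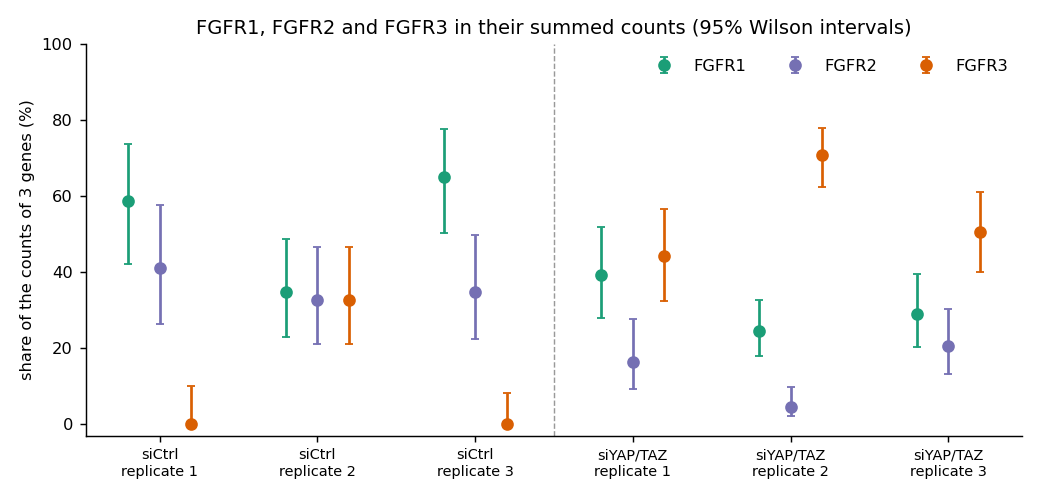
Share of FGFR1, FGFR2 and FGFR3 in their summed counts (y axis, percent) in each library, with 95% Wilson intervals that cover counting error only. FGFR3 is at 0% in siCtrl replicates 1 and 3, at 32.7% in siCtrl replicate 2 and at 44.3 to 70.8% in siYAP/TAZ.

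The libraries held little RNA of other ligands or of the fourth kinase receptor. Of 21 other FGF genes 14 were at or under 3 counts in every library, and FGFR4, with 0, 1 and 3 counts in siCtrl and 0 in each siYAP/TAZ library, was not tested either. FGF1, an acidic relative of FGF2 that binds all FGF receptors, had 26, 24 and 30 counts in the siCtrl libraries against 23, 12 and 17 in the siYAP/TAZ libraries. The groups did not overlap, and the log2 change was -0.68 (SE 0.28, adjusted p = 0.243, and 0.179 with the replicate block). The other 3 tested were FGF12, FGF13 and FGF14, which belong to the intracellular subfamily that regulates sodium channels and does not signal through FGF receptors, with log2 changes of -0.13, -0.69 and 0.74 (adjusted p from 0.276 to 0.922). Per length, FGF12 at 0.580 and FGF14 at 0.436 CPM per 100 kb in siCtrl lay within the range of the long genes of neurons. FGF7, a paracrine ligand of FGFR2, had 4, 5 and 3 counts in the siCtrl libraries against 13, 5 and 11 in the siYAP/TAZ libraries, which was under the low-count filter with all libraries. Without siCtrl replicate 2 FGF7 could be fitted, with a log2 change of 1.43 (adjusted p = 0.147), and DESeq2 gave an adjusted p of 0.568. FGF7 is named here after its values were seen.

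Heparan sulfate proteoglycans, the co-receptors of the FGFs, were mostly at higher values in siYAP/TAZ, with 7 of 10 tested core protein genes above 0 and a median log2 fold change of 0.30, beside a median of -0.00093 over all genes tested. HSPG2, which encodes the basement membrane proteoglycan perlecan, was the 1 gene past the threshold, beside 0.743% of all genes called higher. It had 49, 69 and 75 counts in the siCtrl libraries against 140, 128 and 150 in the siYAP/TAZ libraries and rose from 18.1 ± 3.67 to 38.3 ± 5.72 CPM (a log2 change of 1.08, SE 0.21, adjusted p = 0.0350 in edgeR, higher in 3 of 3 libraries). The call was lost when replicate 1 (0.102) or 3 (0.154) of siCtrl or replicate 2 (0.128) or 3 (0.176) of siYAP/TAZ was left out. The glypican genes GPC6 and GPC1 had log2 changes of 0.62 (adjusted p = 0.0924) and 0.67 (0.243), and GPC6 rose with the replicate block (0.0140), where 4.66% of all genes were called higher. Syndecan-4 (SDC4) had 0.49 (adjusted p = 0.273) but passed once siCtrl replicate 2 was left out (0.0444).

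Of 13 heparan sulfate enzyme genes 12 were tested and 0 passed, with a median of 0.18. At an unadjusted p under 0.05 there were 3, all higher, beside 8.40% of all genes. SULF1, an extracellular sulfatase that trims the 6-O-sulfates by which heparan sulfate holds FGF2 and its receptor together, had 6, 11 and 7 counts in the siCtrl libraries against 18, 32 and 20 in the siYAP/TAZ libraries. The groups did not overlap, and its log2 change was 1.52 (SE 0.48) at adjusted p = 0.142, 0.0267 with the replicate block and 0.0457 without siCtrl replicate 2. In that last fit the 6-O-sulfotransferase gene HS6ST2, named for this call, also passed, but lower, with a log2 change of -0.49 (adjusted p = 0.0310, against -0.34 and 0.308 with all libraries). SULF2, the relative of SULF1, had 0.82 (adjusted p = 0.273, and 0.138 with the block). The 6-O-sulfotransferase gene HS6ST1 and the chain polymerase gene EXT1 had 0.65 and 0.49, with adjusted p-values of 0.298 and 0.161.

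Among 10 transcriptional readouts of growth factor signalling through MAPK, 9 had a log2 fold change below 0 and the median was -0.84, with 1 gene past the threshold beside 1.22% of all genes called lower. PHLDA1, a pleckstrin-domain gene induced by growth factors, had 509, 282 and 499 counts in the siCtrl libraries against 217, 139 and 205 in the siYAP/TAZ libraries. It fell from 119.5 ± 30.0 to 50.3 ± 5.00 CPM (a log2 change of -1.25, SE 0.20, adjusted p = 0.0168 in edgeR, lower in 3 of 3 libraries). The call was lost when replicate 3 of siCtrl (0.101) or replicate 2 (0.0752) or 3 (0.104) of siYAP/TAZ was left out. These genes respond to other growth factors too, EGF in the medium among them, and several have been described as YAP targets, so their levels do not measure FGF signalling alone.

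With the replicate block 7 of the 10 readouts passed, all lower, beside 5.44% of all genes called lower. The block was chosen from these same data and the list with earlier results of them known, so this count is not an independent result. FOSL1, an AP-1 subunit gene, had a log2 change of -1.43 (SE 0.31) at adjusted p = 0.0533, and 0.00335 with the block. The ETS factor gene ETV1 had -0.86 (SE 0.20) with 0.0682 and 0.0150. DUSP5, a nuclear ERK phosphatase gene, had -1.23 (SE 0.36) with 0.115 and 0.0294. ETV5, CCND1 and IER3, named because they passed with the block, had adjusted p-values of 0.0227, 0.0377 and 0.0129 there, and 0.110, 0.191 and 0.266 without it. ETV4, MYC and EGR1 did not pass in either fit.

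Of 10 tested feedback inhibitors and modulators of the pathway, 0 passed with or without the block, with a median log2 fold change of -0.21 and 2 genes, both higher, at an unadjusted p under 0.05, beside 8.40% of all genes. DUSP6, the ERK phosphatase gene often used as a readout of FGF signalling, had 520, 462 and 734 counts in the siCtrl libraries against 730, 761 and 728 in the siYAP/TAZ libraries. Its groups overlapped and its log2 change was 0.37 (SE 0.18, adjusted p = 0.319). The Sprouty gene SPRY1 had -0.77 (SE 0.35, adjusted p = 0.283), with 13, 15 and 17 counts against 10, 9 and 8. FLRT1 and FLRT3, membrane proteins that bind FGF receptors, had 1.07 and 0.86, with adjusted p-values of 0.274 and 0.222, and FLRT3 passed when both libraries with conflicting labels were left out (1.26, adjusted p = 0.00557).

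The adaptors next to the receptor had 10 tested genes and 0 calls in either fit, and their log2 fold changes ran from -0.29 to 0.23. The 4 splicing factor genes that set the choice between the epithelial and mesenchymal receptor exons, ESRP1 and ESRP2 among them, ran from -0.085 to 0.20, also with 0 calls in either fit. At an unadjusted p under 0.05 there were 0 in both lists. Over the 8 lists together, 60 of 88 genes were tested, with 2 calls (beside 1.96% of all genes), 10 with the replicate block (beside 10.1%) and a median of -0.080.

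**Figure D5:**
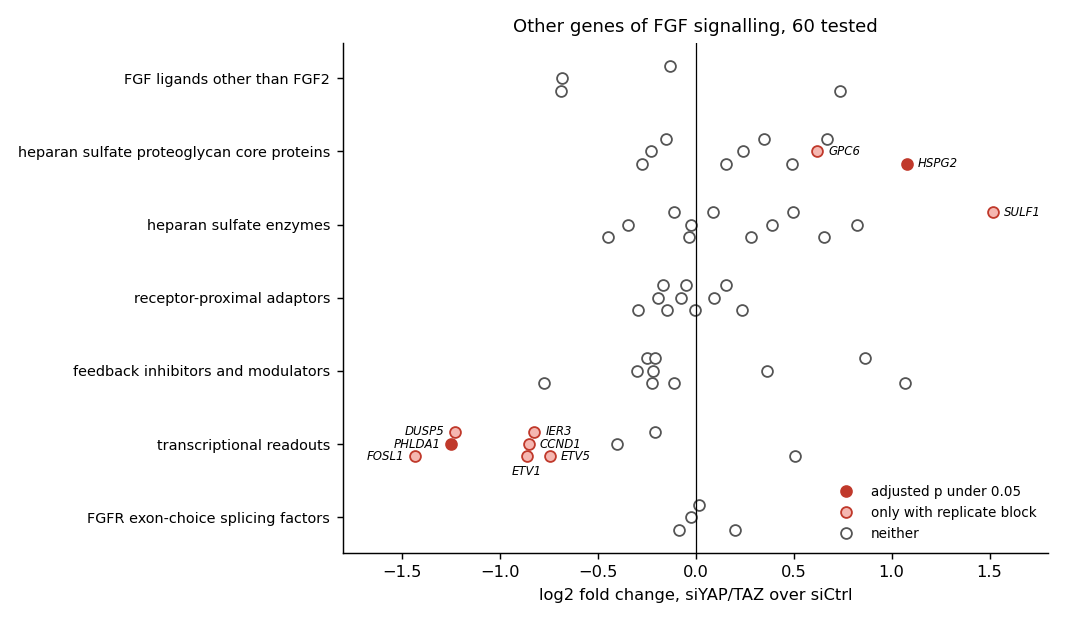
Log2 fold change, siYAP/TAZ over siCtrl (x axis), of the 60 tested genes in 7 lists of FGF pathway genes (rows), with genes past an adjusted p of 0.05 filled and named and genes past it only with the replicate block in a lighter fill and named. The transcriptional readouts reach from -1.43 to 0.51, and the adaptors and splicing factors lie between -0.29 and 0.23.

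The genes whose profile over the 6 libraries was most like that of FGF2 were MAP2K3, a kinase that activates p38, and ATP13A3, a polyamine transporter. The root-mean-square difference of the centred log2 CPM was 0.066 and 0.068 over 6 libraries among 8885 genes with a mean of at least 50 counts. MAP2K3 stood at 89.6, 68.8 and 74.6 CPM in the siCtrl libraries against 40.1, 54.2 and 41.3 CPM after depletion. For FGFBP1 the most similar genes, CXCL8 and XDH, were further away at 0.24 and 0.25. CXCL8, a neutrophil-attracting chemokine, had its lowest control value and its highest siYAP/TAZ value in replicate 2, at 34.9 and 36.7 CPM, as FGFBP1 did. Of these 4 genes ATP13A3 passed the threshold with all libraries, with a log2 change of -0.72 (adjusted p = 0.0354 in edgeR, and 0.0946 to 0.199 without any 1 library other than siCtrl replicate 2).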

How the data were processed

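Strand-specific poly(A)-primed 3′ libraries of 6 MCF10A samples were compared. The authors deposited 1 table of raw counts per Entrez gene without normalization. Per the submitters' processing notes, reads were handled with cutadapt 4.2 and Bowtie2 2.3.5.1 and the build was hg19, and for RNA-Seq the study's methods describe counting of overlaps with genes in R. The annotation and the use of strand in counting are not given in the sources used here. The table held 0 unused columns of values, and 23308 IDs matched a symbol in the RefSeq table of GRCh38.p14. Locations are from GENCODE lifted to GRCh37, and promoters from RefSeq.

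Counts of all genes were fitted with edgeR 4.0.16 in R 4.3.3 (filterByExpr, TMM, quasi-likelihood F test, Benjamini-Hochberg over 12510 genes, threshold 0.05). CPM used the effective library sizes. The method was tested on simulated data. Groups and replicate numbers came from the description field. Same-numbered libraries deviated together from their group means (r of 0.43, 0.35 and 0.13 across genes), and the replicate numbers were therefore treated as pairs in an alternative fit. No label names pairs, some titles give other replicate numbers, and libraries with different numbers were not compared in this way. No pair of libraries was identical, and replicates differed by more than sampling noise. The study states biological replicates for its RNA-Seq, but the labels name no separate cultures, so p-values measure the spread between these libraries. The members and gene lists were chosen with earlier results of these data known.

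Named were the 6 genes, YAP1 and WWTR1, annotated genes that overlap them or lie within 5 kb of their 3′ ends and are in the table, up to 4 genes per list by call and size, and the 2 most similar genes for members with a mean of at least 50 counts. Alternatives were DESeq2 1.42.0, other scaling, filters and dispersion, the replicate block, each library left out, the groups of the titles, and the 2 libraries with conflicting labels left out. The most similar genes were found on log2 CPM with a prior count of 2. The receptor shares used an exact permutation test over libraries. Protein sequences were not used here.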

Additional observations from a re-analysis of the deposited data

How the results depend on the processing

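With 245 of all genes past the threshold, DESeq2 gave 578, no low-count filter 556, the replicate block 1263, the groups of the titles 0 and leaving out both libraries with conflicting labels 1183, and with 1 library left out the count ran from 16 to 1579. Of the 6 FGF genes 0 passed, with 1 in DESeq2, 2 with no filter, 2 with the block, 3 without both libraries and 0 to 3 with 1 left out. Of the pathway genes 2 passed, with 5, 4, 10, 0 under the titles and 7 without both libraries, and 0 to 10 with 1 left out.

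FGF2 passed in DESeq2 (-0.78), with no filter (-0.77), with the replicate block (-0.77) and without both libraries (-0.94). With 1 library left out it ran from -0.87 to -0.61. The remainder after NUDT6 was subtracted, a step chosen after the data were seen, passed too (-1.09, and -1.08 with the block). Its larger drop follows from NUDT6 falling less than FGF2, so this is no separate support. FGFBP1 passed without both libraries (-1.97) and ran from -1.69 to -0.66 with 1 left out. FGFR3 passed with no filter (3.32), with the block (3.54) and without both libraries (8.08, a value that depends on the prior count), and ran from 2.48 to 8.86 with 1 left out. Each fit that FGFR3 passed included siCtrl replicates 1 and 3, both at 0 counts.

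Directions reversed under the titles for FGFR1 (-0.43), FGFR2 (0.23), FGFR3 (-0.38), LETM1 (-0.29), GPC6 (-0.020), SULF1 (-0.067), EXT1 (-0.14), FGF12 (0.21), FLRT1 (-0.18) and DUSP6 (-0.21). Without both libraries they reversed for FGFR1 (-0.10), LETM1 (-0.18) and FGF12 (0.049). With 1 library left out FGFR1 ran from -0.013 to 0.49, FGFRL1 from -0.24 to 0.062, LETM1 from -0.088 to 0.20 and FGF12 from -0.55 to 0.39. None of these reversed values passed the threshold, and the cause was not tested. The replicate block changed no call of a gene named other than those given with it, except for MAP2K3 (0.0129), CXCL8 (0.0357) and XDH (0.0457), which passed. Without both libraries NUDT6 (-0.79), FLRT3 (1.26), FOSL1 (-1.46), ETV1 (-0.90), ETV5 (-0.78), CCND1 (-1.11), MAP2K3 (-1.01), CXCL8 (-2.04) and XDH (-1.42) passed in addition. The share of FGFR3 was higher by 18.9 to 55.2 points in the 8 alternatives run for it.

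FGFR1, FGFR2, FGFR3 and FGFRL1 could not be fitted under a mean of at least 50 counts. At 6 to 32 counts per library, the 95% intervals of FGFR1 and FGFR2 reach a 2.05-fold and a 0.375-fold level, so changes up to these levels were not excluded.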
